A study of Mus musculus with 4 samples.

Results

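Genes of skeletal muscle were examined on arrays of the CA1 field of the hippocampus, a tissue that holds no skeletal muscle. The set comprised 8 genes, chosen by name: the myogenic regulatory factors Myog, Myod1, Myf5 and Myf6, and the contractile and energy genes Acta1, Ckm, Tnnt3 and Tnni2. Every probe set annotated with 1 of these symbols and no other was taken, which gave 9 probe sets, of 10833 that carried 1 symbol. Myog was picked because its 4 values rose in the order of time in an earlier look at these arrays, so its own order and slope are described below and not tested. All 4 arrays hold total CA1 RNA from young C57BL/6J males that an experimenter handled and did nothing else to, and they differ in extraction time: 1, 2, 4 or 6 hr, with 1 array at each. The hour is counted, per the labels, from the last shock of other mice, whose arrays were not analysed here. The sources used here do not give the number of mice behind an array. Extraction time and any other difference between samples or arrays cannot be told apart.

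The myogenic regulatory factors are basic helix-loop-helix transcription factors that set and carry out the skeletal muscle programme. Myod1 and Myf5 commit precursor cells, Myog drives their terminal differentiation, and Myf6 acts in differentiation and in mature fibres. They bind DNA as dimers with E proteins at E-boxes, short sequences spelled CANNTG, and Id proteins hold the E proteins away from them. Acta1 encodes the actin of the skeletal thin filament and Ckm the muscle creatine kinase, which regenerates ATP beside the filaments. Tnnt3 and Tnni2 encode the fast-fibre forms of troponin T and troponin I, the calcium-dependent switch of the thin filament. In the brain these genes serve as a check of what a probe set reads when little or none of its transcript should be present.

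The 250 bases before the start site of Myog, Acta1 and Ckm are shown because they place the binding letters of the myogenic factors beside the values of a factor and of 2 muscle structural or energy genes. Windows were at hand for 4 of the 8 genes (build GRCm38.p6), the fourth being Myf5. Those of the other genes were not among the sources used here. Capitals mark E-boxes (CANNTG, which reads the same on both strands) and, in Acta1, also the CArG box, the recognition sequence of serum response factor, searched on both strands. The Myog window is chr1:134289754-134290003 on the plus strand, the Acta1 window chr8:123894776-123895025 on the minus strand and the Ckm window chr7:19410844-19411093 on the plus strand.
Myog: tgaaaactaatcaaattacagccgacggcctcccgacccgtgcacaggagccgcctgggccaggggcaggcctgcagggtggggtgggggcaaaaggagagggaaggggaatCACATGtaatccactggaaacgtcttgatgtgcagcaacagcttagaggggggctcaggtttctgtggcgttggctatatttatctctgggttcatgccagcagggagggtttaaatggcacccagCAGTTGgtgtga
Acta1: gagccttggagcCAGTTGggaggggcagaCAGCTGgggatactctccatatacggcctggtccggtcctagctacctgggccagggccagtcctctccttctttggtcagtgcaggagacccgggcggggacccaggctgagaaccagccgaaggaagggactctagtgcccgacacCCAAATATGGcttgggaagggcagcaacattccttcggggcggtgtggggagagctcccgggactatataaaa
Ckm: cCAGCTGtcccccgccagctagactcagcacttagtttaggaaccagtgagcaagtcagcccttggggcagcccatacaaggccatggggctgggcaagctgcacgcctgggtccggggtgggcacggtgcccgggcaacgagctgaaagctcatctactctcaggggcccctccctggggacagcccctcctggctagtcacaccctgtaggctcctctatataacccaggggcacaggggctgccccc

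The Myog window held 2 E-boxes, with first bases 138 and 12 bases before the start. The Acta1 window also held 2, one of them the CAGCTG form, and the Ckm window held 1 of the CAGCTG form at its far end. The Myf5 window held 0. Of 32817 windows of the same length, 66.2% held an E-box, 13.0% the CAGCTG form and 1.47% a CArG box. An E-box was thus common to most windows, and the Acta1 CArG box, which begins 73 bases before the start, was the less frequent match. The matches overlap one another only where an E-box is itself the CAGCTG form. In the RefSeq annotation Myf5 and Myf6 lie next to each other on chromosome 10. Tnni2 and Tnnt3 lie near each other on chromosome 7 with 1 coding gene between them.

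The deposited values are linear intensities, scaled so that the trimmed mean of every array was close to 500.3. The 25th percentile of each array was 60.2, 44.7, 60.4 and 55.4 at 1, 2, 4 and 6 hr, and the median was 204, 173, 204 and 198. Most brain marker probe sets were bright on these arrays, and some were dim. Snap25, a protein of synaptic vesicle fusion, averaged 19040 ± 1476, and Gria2, an AMPA receptor subunit, averaged 10312 ± 884 through its brightest probe set (SD over the 4 arrays, 1 at each time, n = 4). The brightest probe set of Mbp, a myelin protein, averaged 6870 ± 935 and that of Gja1, an astrocyte gap junction protein, 5679 ± 736 (SD, n = 4). Of 21 probe sets for neuronal and CA1 markers, 16 lay above the array median on all 4 arrays. Of 24 for other brain cells 17 did, where 41.7% of all probe sets did. Among the dim ones, Camk2a of the neuronal list averaged 11.5 and 126 through its probe sets. In the list of other brain cells Gad2 averaged 112 and Aif1 72.4. Markers of choroid plexus and blood were read as well. Ttr, a choroid plexus gene, read 140, 140, 3217 and 196 at 1, 2, 4 and 6 hr, so the 4 hr array stood apart in this gene. Without that array the slopes were 0.47 log2 units per hr for Myog, 0.04 for Myod1, -0.16 for Acta1 and -0.20 for the first Ckm set, and limma called 0 probe sets over time. Hba-a1, a haemoglobin gene of red blood cells, read 3907, 1883, 2444 and 3150.

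The muscle genes were mostly dim, but they were not uniformly at the bottom of the arrays. Of their 36 values, 20 lay above the 25th percentile of their own array. Myog, Myod1 and Acta1 were above it on all 4 arrays, which makes 3 of 9 probe sets, where 61.6% of all 12422 probe sets were. Myf5 and Tnni2 were below it on all 4 arrays, 2 of 9 probe sets, where 11.8% of all were. Myod1 was the only member above the array median on all 4 arrays, where 41.7% of all probe sets were. Detection calls were not used, so it is unknown which values were above background. A probe set's brightness also depends on its probes, so these positions do not rank the genes against each other.

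**Figure D1:**
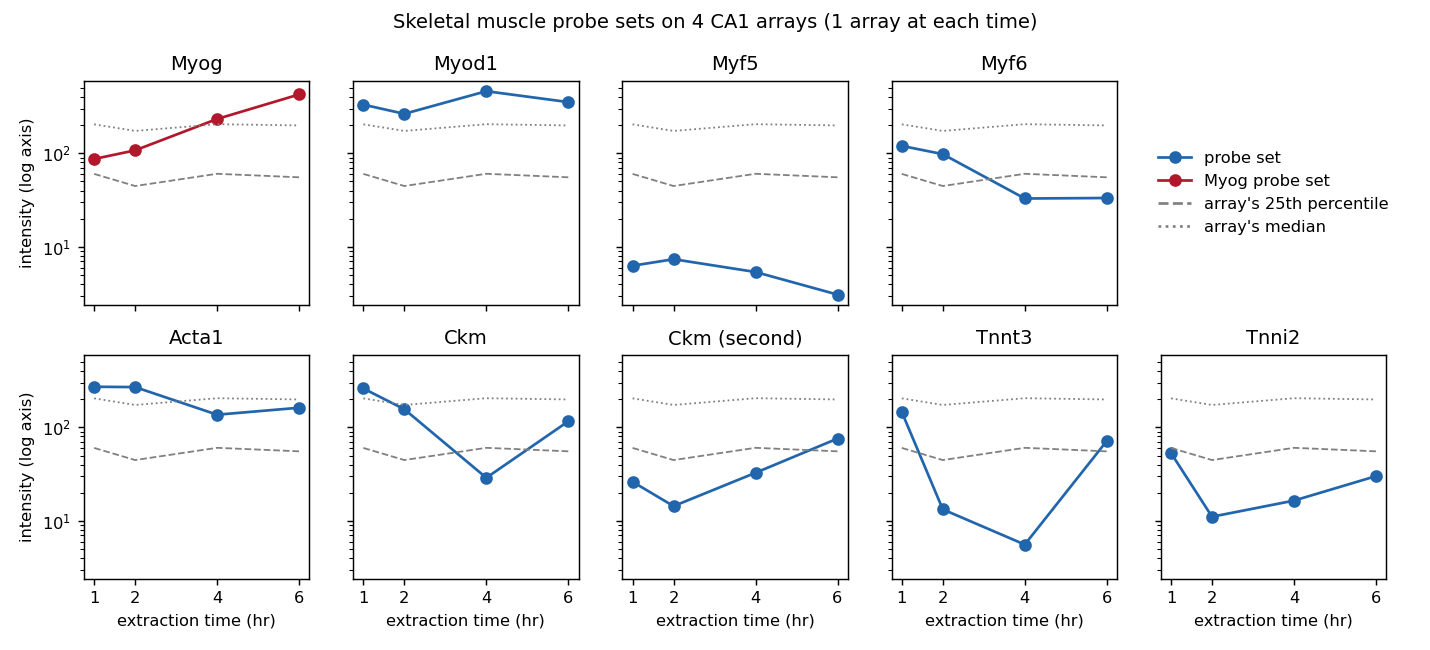
Intensity (log axis) of each muscle probe set against extraction time in hr, with the array's 25th percentile (dashed) and median (dotted); each point is 1 array. Myog runs from 86.9 at 1 hr to 425 at 6 hr, Myod1 stays above the median, and Myf5 stays at 7.4 or less.

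Among the regulators, Myog (probe set 103053_at) read 86.9, 108, 232 and 425 at 1, 2, 4 and 6 hr. The 1 and 2 hr arrays were low and close together, and the 4 and 6 hr arrays were high. These values were 1.44, 2.40, 3.85 and 7.66 times the 25th percentile of their arrays, and they moved Myog up the ranking from percentile 31.1 at 1 hr to percentile 67.7 at 6 hr. The 6 hr value was 4.89-fold the 1 hr value. The successive steps on the log2 scale were 0.31, 1.11 and 0.87, and the fitted slope was 0.47 log2 units per hr. For comparison, 1851 probe sets had a mean within 0.5 log2 units of that of Myog. The median distance between their highest and lowest array was 1.08 log2 units, against 2.29 for Myog. Of these 1851, 156 (8.43%) spanned at least as much as Myog. Myog was picked on these same values, so its distance is a description.

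Myod1 (102986_at), a commitment factor, read 330, 264, 460 and 352. It was highest at 4 hr and lowest at 2 hr, and its 1 and 6 hr values were nearly equal. It averaged 351 ± 81.5 (SD over the 4 arrays, n = 4) and its rank ran from percentile 59.1 to 69.4. Its slope was 0.07 ± 0.08 log2 units per hour (SE, limma adjusted p = 1.000 over all tested probe sets), smaller than its SE, and it was 0.19 without the 6 hr array, 0.10 without the 1 hr array, 0.04 without the 4 hr array and 0.03 without the 2 hr array. Its highest and lowest arrays were 0.80 log2 units apart, and 42.1% of the 1911 probe sets at its level spanned at least as much. Its 4 values were thus above the array median throughout and not in the order of Myog.

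Myf5 (101162_at), the other commitment factor, read 6.3, 7.4, 5.4 and 3.1. All 4 values were below percentile 5 of their arrays and far below the floor of 54.7 used for log2 values, so they have no order. Myf6 (102265_at) read 120, 97.9, 32.9 and 33.3. It was above the 25th percentile at 1 and 2 hr and below it at 4 and 6 hr, the reverse of the split in Myog. Its 1 hr value was at least 2.19-fold the 4 and 6 hr values, which lay under the floor. Of the probe sets of Myf5 and Myf6, neighbours in the genome, only that of Myf6 reached the 25th percentile, and on 2 arrays. Brightness also depends on the probes, so this does not rank the genes.

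Among the contractile and energy genes, Acta1 (100381_at) read 271, 269, 136 and 162. The 1 and 2 hr values were almost the same and both lay above the 4 and 6 hr values. Its slope was -0.19 ± 0.08 log2 units per hour (SE, limma adjusted p = 0.972), which did not pass, and it was -0.35 without the 6 hr array. The difference of 4 and 6 hr from 1 and 2 hr was -0.86 ± 0.23 log2 units (SE, limma adjusted p = 0.906), which did not pass either. Its span of 0.99 log2 units was reached by 48.6% of the 1842 probe sets at its level. The actins are close copies of one another, and the files do not say whether these probes separate Acta1 from the cardiac and smooth muscle actins.

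Ckm was measured by 2 probe sets that disagreed. The first (160175_at) read 260, 156, 28.9 and 116, with its highest value at 1 hr and its lowest at 4 hr, which lay under the floor. The 1 hr value was at least 4.75-fold the 4 hr value, and the slope was -0.27 ± 0.16 log2 units per hour on the floored scale (SE, adjusted p by limma = 1.000). Without the 6 hr array the slope was -0.75. Its span of 2.25 log2 units on the floored scale was reached by 8.82% of the 1995 probe sets at its level. The second (161569_f_at), whose suffix marks probes shared within a sequence family, read 26.2, 14.4, 32.7 and 75.8. Only its 6 hr value was above the floor or above the 25th percentile. The first set was thus highest at 1 hr, where the second was under the floor, and a direction for Ckm cannot be given.

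Tnnt3 (92885_at) read 146, 13.3, 5.6 and 71.4. It was above the 25th percentile at 1 and 6 hr and among the dimmest probe sets of the array at 2 and 4 hr, at percentiles 8.98 and 0.910. Tnni2 (93532_at), the other fast troponin and a near neighbour of Tnnt3, read 53.1, 11.1, 16.5 and 30.1. All 4 values were under the floor and under the 25th percentile of their arrays, so they have no order, and the 2 troponins cannot be compared over time.

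**Figure D2:**
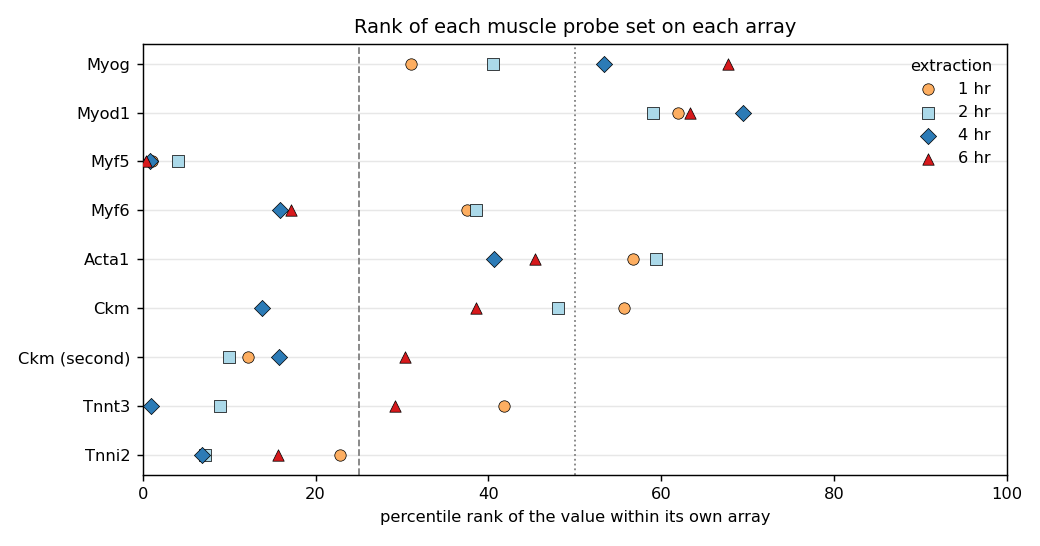
Percentile rank of each muscle probe set within its own array, with 1 marker per array and the 25th (dashed) and 50th (dotted) percentiles. The Myog markers run in the order of time from 31.1 to 67.7, while those of Acta1 and Myf6 put 1 and 2 hr to the right of 4 and 6 hr.

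No other member probe set was in the order of Myog, an order that few probe sets of the array had. Of the other 8 probe sets, 0 were in strictly rising order of time, with the floor or as deposited. With the floor 2.88% of all probe sets and 4.00% of the tested ones were, and as deposited 3.89% of all were. On the floored scale Myf5, Myf6, Tnnt3, Tnni2 and the second Ckm set had tied values and could not rise strictly. Beside shares this small, 0 of 8 does not set the muscle genes apart. Besides Myog, Myod1 had both later arrays above both earlier ones, which makes 2 of 9, where 14.7% of all probe sets had this split. The opposite split, 4 and 6 hr both below 1 and 2 hr, was seen in Myf6, Acta1 and the first Ckm probe set, 3 of 9, where 12.2% of all had it. Both splits were thus present among the 9 probe sets.

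The array that held the maximum was counted for the regulators and the structural genes, on the floored scale and with no test of the difference. Tnni2 and Myf5, under the floor on every array, have no maximum. Of the 4 contractile and energy probe sets with a value above the floor 3 were highest at 1 hr (Acta1, the first Ckm set and Tnnt3), as was 1 of 3 such regulators, Myf6, where 28.2% of the 10989 such probe sets of the array had their maximum there. The second Ckm set was highest at 6 hr. With 1 array per time these differences have no replicate check.

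A line over time was fitted to 7453 probe sets that passed a filter on mean level, among them 4 of the 9 members (Myog, Myod1, Acta1 and the first Ckm set). After Benjamini-Hochberg adjustment limma called 0 of the 7453 (0%), and 382 had an unadjusted p below 0.05. Ordinary least squares called 0 and had 333. Of the 3 members for which the slope was tested, 0 passed. Slopes were above 0 in 50.9% of all tested probe sets, and among these 3 in Myod1 only.

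**Figure D3:**
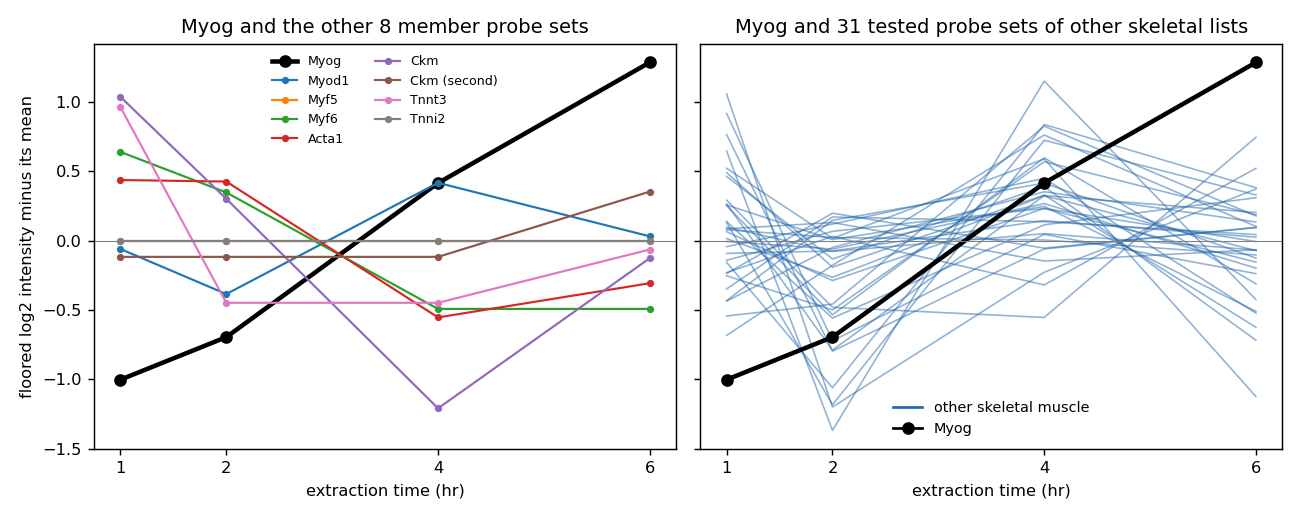
Floored log2 intensity minus its mean over the 4 arrays, against extraction time in hr: Myog (black) with the other 8 member probe sets (left) and with 31 tested probe sets of other skeletal muscle lists (right). The left panel shows Acta1, Myf6 and the first Ckm set sloping down from 1 to 4 hr while Myog slopes up. On the right no blue line is in rising order, an order that 4.00% of all tested probe sets had.

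The wider muscle programme was taken from 3 lists of other skeletal muscle genes, with 52 genes and 74 probe sets on the array. Of the 74, 0 were in strictly rising order on the floored scale, where 2.88% of all probe sets were. In the values as deposited 3.89% of all were, and so were 2 of the 74, both with values under the floor. These were Cacna1s, the calcium channel that senses voltage in muscle fibres, at 28.5, 31.9, 86.9 and 133, and 1 of the 3 probe sets of Ckmt2, the mitochondrial creatine kinase, at 17.0, 26.9, 59.6 and 77.5. The other 2 Ckmt2 sets read at most 54.9. Of the 31 probe sets tested, 16 had a slope above 0 and 15 below (median 0.02 log2 units per hour), and limma called 0 of them. An unadjusted p below 0.05 was found for 0 of the 31 and for 382 of all 7453. Beside shares this small, these counts do not set the lists apart. The slopes of these muscle genes were thus split about evenly in sign.

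Other sarcomere genes gave 29 probe sets. Of these 12 lay above the 25th percentile on all 4 arrays and 9 below it on all 4, where 61.6% and 11.8% of all did. Tpm3, a tropomyosin that other cells also use, averaged 1026 ± 179 through its brighter probe set and 105 through the other. Tnni1, the slow-fibre troponin I, read 293, 396, 332 and 368 through its probe set. The fast myosin heavy chains Myh1, Myh2 and Myh4, the motors of fast fibres, read at most 55.1 through the Myh1 and Myh2 sets and 1 of the 2 Myh4 sets. The other Myh4 set (161545_r_at) read 287, 179, 256 and 132, so here too probe sets of a gene disagreed. Of the 29 probe sets 10 were lowest at 2 hr on the floored scale, where 21.1% of all probe sets had their minimum. The 2 hr array also had the lowest 25th percentile and the lowest median, and the part of this in the count was not tested.

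Calcium handling and metabolic genes gave 24 probe sets, 10 of them above the 25th percentile on all 4 arrays and 3 below on all 4. Of all probe sets 61.6% lay above on all 4 and 11.8% below. The brightest was a probe set of Pvalb, a calcium buffer of fast fibres that brain interneurons also make. It averaged 3445 ± 207, while the other Pvalb set averaged 239. Next came Cox6a2, the heart and muscle form of a cytochrome c oxidase subunit, at 677 ± 153 (SD over the 4 arrays, n = 4 each). Casq1, the calcium store protein of the sarcoplasmic reticulum, read 544, 426, 611 and 518. Genes of the neuromuscular junction and muscle membrane gave 21 probe sets, with 9 (42.9%) above and 8 (38.1%) below on all 4 arrays. Agrn, the organiser of the junction that neurons and other cells secrete, had 2 probe sets, which averaged 1452 ± 223 and 770 (n = 4). Chrna1, Chrnd and Chrng encode muscle acetylcholine receptor subunits and Musk the receptor kinase of the junction. Chrna1 read 138, 46.7, 68.4 and 110, Chrnd 102, 41.0, 204 and 149, and Musk 40, 8.3, 8.6 and 14.6. The 2 Chrng sets were both highest at 4 hr, at 175 and 177.

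Many partners and inhibitors of the myogenic factors are also used by brain cells. Of their 29 probe sets 17 (58.6%) lay above the 25th percentile on all 4 arrays and 3 (10.3%) below on all 4. These shares were near those of all probe sets, 61.6% and 11.8%. Tcf4, an E protein, read 8331, 7475, 4986 and 7664, and was lowest on the 4 hr array. Mef2d, a cofactor of the myogenic factors that neurons also make, averaged 5981 ± 493. The Id genes, which encode proteins that sequester E proteins, did not share an order. Id2 read 4732, 5132, 3142 and 4189, and Id4 read 1346, 1548, 797 and 1549. Id1 read 378, 233, 182 and 216, and Id3 read 497.5, 647, 683 and 660. Id1, Id2 and Id4 were lowest at 4 hr, whereas Id3 was highest there. Of 16 tested probe sets in this list 7 had a slope above 0 and 9 below, and limma called 0. An unadjusted p below 0.05 was found for 0 of the 16 and for 382 of all 7453. None of the probe sets in this list followed the order of Myog, where 2.88% of all did on the floored scale.

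**Figure D4:**
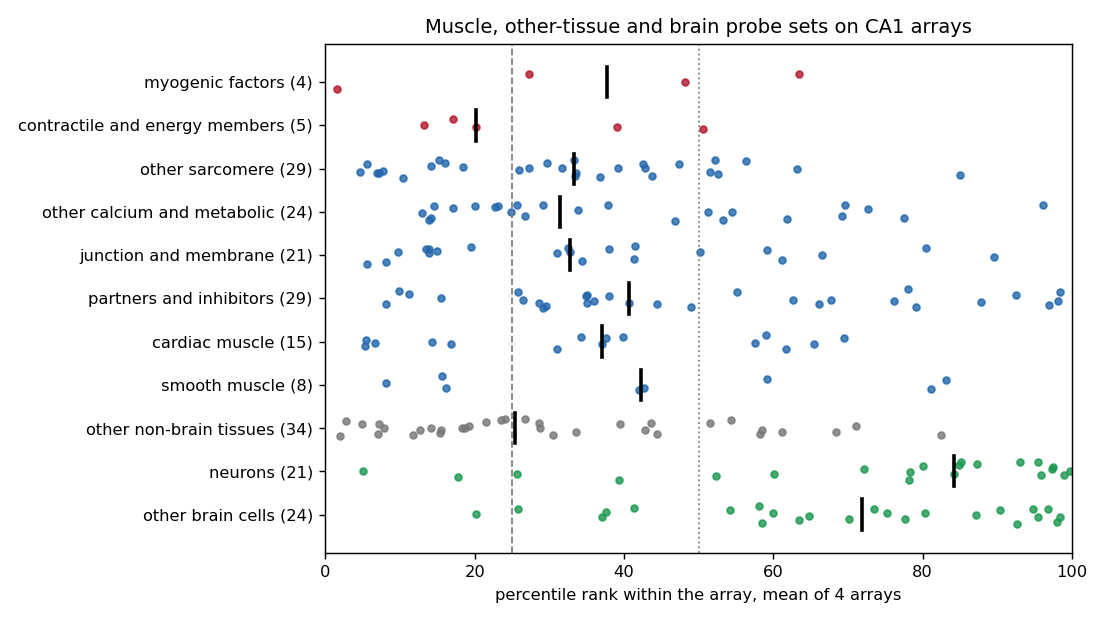
Mean percentile rank over the 4 arrays of every probe set in each gene list (dots, number of probe sets in brackets), with the list median as a black bar and the 25th (dashed) and 50th (dotted) percentiles. The medians of the muscle lists lie at 20.2 to 42.3, those of the neuron and other brain cell lists at 84.2 and 71.8.

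Cardiac muscle genes gave 15 probe sets and smooth muscle genes 8. Smooth muscle occurs in brain vessels, and 1 of its genes had the order of Myog: Tagln, an actin-binding protein, at 53.3, 133, 165 and 284, with the 1 hr value under the floor. With quantile normalization Tagln was not in rising order, and 0 probe sets of these lists were. Its slope was 0.41 ± 0.09 log2 units per hour (SE, limma adjusted p = 0.884), which did not pass. Acta2, the actin of smooth muscle, read 201, 233, 152 and 36.5, with the minimum where Tagln had its maximum. The brightest smooth muscle probe sets were those of Mylk, the myosin light chain kinase, at 897 ± 103, and Actg2, the enteric smooth muscle actin, at 810 ± 156 through a family probe set (SD over the 4 arrays, n = 4 each). The brightest cardiac probe sets were both family probe sets. These were of Myh7, a myosin heavy chain, at 453 ± 48.3, and Actc1, the cardiac actin, at 201, 493, 464 and 483. The second Myh7 set, also a family set, read 99.5, 177, 59.0 and 66.7, and the second Actc1 set read at most 26.1. Of the 8 smooth muscle probe sets 1 was in rising order and of the 15 cardiac ones 0. On the floored scale 2.88% of all probe sets were. The filter on mean level left 5 of the 8 smooth muscle and 6 of the 15 cardiac probe sets to test. Limma called 0 of these. Tagln and Acta2 had an unadjusted p below 0.05, as had 382 of all 7453 tested probe sets.

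The 5 tested probe sets most like Myog were found by the root mean square difference of mean-centred log2 values over the 4 arrays, among 6709. They were those of Hinfp, a histone gene regulator (0.20 log2 units), Map3k12, a neuronal stress kinase (0.21), Erdr1 (0.22), Plekha1, a phosphoinositide-binding protein (0.25), and Sh3bp2, an adaptor protein (0.26), where the median was 0.94. Hinfp read 76.5, 100.2, 282 and 367, and Erdr1 read 133, 117, 323 and 453. None of the 5 is a muscle gene of the lists. Map3k12 read 19.5 at 1 hr, a value that was raised to the floor. Other probe sets existed for 4 of the 5 genes, and none of those was in rising order, where 2.88% of all probe sets were. Their differences from Myog were 0.54 for Sh3bp2, 0.61 for Erdr1, 0.91 and 1.29 for Plekha1 and 1.07 for Hinfp. The second Hinfp set read 128, 64.0, 126 and 77.3. Of the 5 probe sets 4 carry a suffix for relaxed or shared probe design, against 13.8% of the 6709, while Myog does not. Among the members, Myod1 was the nearest tested one, at rank 1195 with a difference of 0.80, and Acta1 and the first Ckm set were at ranks 6367 and 6625.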

How the data were processed

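Intensity values of 12488 probe sets on 4 arrays were taken as the authors deposited them. The sources used here do not name the software that summarised the probes. Values are linear, and a common trimmed mean (2% at each end) shows that they were scaled before deposit, which no label states and which hides any change shared by most genes. Names came from the platform's annotation table: 10833 had 1 symbol, 396 several and 1193 none, beside 66 controls, which were left out. All 8 members matched RefSeq (GRCm38.p6) by gene identifier.

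A floor of 54.7, the 25th percentile over all arrays, was set before log2. Fold changes that involve the floor are bounds. Probe sets with a mean above the 40th percentile (7453) were fitted with a line over hours in limma 3.58.1 (R 4.3.3), two-sided, with Benjamini-Hochberg adjustment at 0.05 and 2 residual degrees of freedom. On simulated data the fit recovered steep slopes and not shallow ones. The slopes fitted to Myod1, Acta1 and the first Ckm set over all 4 arrays were shallower than any recovered. That they did not pass therefore does not show that they were flat. No source says that the arrays are separate animals, so p-values reflect only how these arrays scatter about a line, possibly for technical reasons. The number of arrays limits the precision. Members, lists and tests were chosen with earlier results of these data known. Named were all members, in each other list the 2 probe sets of highest mean and any in rising order, and the 5 most like Myog; other list genes with values were chosen after these were seen. Alternatives covered scaling, floor, filter, variance model, time scale and each array left out.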

Additional observations from a re-analysis of the deposited data

How the results depend on the processing

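The count of probe sets called over time was 0 for the line and each of its alternatives, with a smallest adjusted p between 0.352 and 0.996, and 0 for 4 and 6 hr against 1 and 2 hr, between 0.210 and 0.695. The slopes of Myod1, Acta1 and the first Ckm set kept their sign under each alternative in which they were tested. The slope of Myog was 0.46 to 0.50 log2 units per hr with each array left out, that of Acta1 -0.35 to -0.16 and that of Myod1 0.03 to 0.19. It was -0.75 for the first Ckm set without the 6 hr array. The Myog slope was 0.38 with the floor at the 40th percentile, where its 2 lowest values lie on the floor. There the number of members in strictly rising order was 0. Without the floor, an alternative chosen after seeing the data, and with the floor at the 10th percentile, the related lists had 3 probe sets in rising order (Tagln, Cacna1s and Ckmt2), and with quantile normalization 0. Leaving out 1 array, which leaves 3 values to order, gave 8 to 19 of 126 probe sets, where 11.5% to 13.2% of all were so ordered. Of the 36 member values 27 lay above the 10th percentile of their array, 14 above the 40th and 9 above the median. No paired analysis was possible because each time has 1 array and the groups share fewer than 2 replicate numbers. Values near the 25th percentile cannot be told from background without detection calls.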

Other observations

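Genes of other tissues that are not brain gave 34 probe sets for 26 genes on the same arrays. Of the 34, 12 lay above the 25th percentile of the array on all 4 arrays and 11 below on all 4. Of the 9 muscle members 3 and 2 did, and of all probe sets 61.6% and 11.8%. Liver genes ranged widely. Cyp2e1, a cytochrome P450 enzyme, read 195, 332, 321 and 294, and 1 of the 2 Apoa2 sets, for an apolipoprotein, read 149.5, 73.0, 178 and 99.9, both above the 25th percentile on all 4 arrays. Alb, the serum albumin, read 224, 30.8, 67.6 and 29.3, and Fgb, a fibrinogen chain, read at most 9.0. The brightest sperm and skin probe sets were of Tnp1, a transition protein of sperm chromatin, at 874 ± 146 and of Lor, a protein of the cornified skin layer, at 497 ± 125 (SD over the 4 arrays, n = 4 each). Both carry a suffix for relaxed or shared probe design. For Krt10, a keratin of skin, 1 set read 349, 313, 223 and 256 and the other averaged 51.3. The second Tnp1 set read at most 13.2, and the second Lor set read 20.5, 72.2, 230 and 22.2, with its 4 hr value above the array median. Gh, the pituitary growth hormone, read 526, 275, 342 and 683. On the floored scale 2.88% of all probe sets were in the order of Myog. Of the 34, 1 met it, Tnp2, at 129, 131, 136 and 229 (limma adjusted p = 0.972 for its slope). Of 24 probe sets for other brain cells 1 met it, that of Slc1a2, the glial glutamate transporter (slope 0.27 ± 0.07 log2 units per hour, SE, limma adjusted p = 0.884). Of 21 for neuronal and CA1 markers 0 did. These counts do not set the lists apart.

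The spread between arrays on the floored scale differed with brightness. Probe sets were split into 5 groups of equal size by mean level. In the second group 69.7% had a highest value at least 2-fold their lowest, in the third 54.0%, in the fourth 18.2% and in the fifth 3.62%. Strictly rising order was seen in 2.42%, 4.87%, 4.07% and 3.06% of these groups. In the first and dimmest group both shares were 0%. Values under the floor are set equal, which lowers the spread and the rising counts of dim probe sets. Of the 9 muscle probe sets 3 fell in the dimmest group, 2 in the second, 3 in the third, Myog included, and 1 in the fourth.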
